A study of Homo sapiens with 4 samples.

Results

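ONECUT2 occupancy was examined at 8 genes of 2 signalling systems, the SMAD genes SMAD2, SMAD3, SMAD4, SMAD6 and SMAD7 and the hypoxia factor genes HIF1A, EPAS1 and ARNT. The members were chosen by position: every peak was taken that overlapped the hg19 interval of one of these genes extended by 50 kb on each side. This gave 10 of 14431 peaks in the list of ChIP replicate 1, 4 of 11990 in that of replicate 2 and 5 of 4297 regions in the irreproducible discovery rate (IDR) list. The measurements came from chromatin immunoprecipitation and sequencing (ChIP-seq) in 22Rv1, a long-established human line of castration-resistant prostate carcinoma. There were 2 ChIP libraries, made with a rabbit antibody to ONECUT2, and 2 input libraries of sonicated DNA without antibody. All 4 came from 22Rv1 cells grown in RPMI-1640 medium with serum, and the labels name no treatment. The 4 libraries include none with ONECUT2 removed and none with a control antibody, so the only background is input DNA. Whether separate cultures were used for the ChIP libraries is not stated, and the spread between them may be technical.

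ONECUT2 is a transcription factor with a CUT domain and a homeodomain that binds short AT-rich sequences. The SMAD proteins carry signals of the TGF-beta family from the cell surface to the nucleus. SMAD2 and SMAD3 are phosphorylated by activated receptors and join SMAD4, while SMAD6 and SMAD7 inhibit the pathway. HIF1A and EPAS1 encode the oxygen-regulated subunits of hypoxia-inducible factors HIF-1 and HIF-2, and ARNT encodes their constitutive partner. TGF-beta and hypoxia signalling have both been studied beside ONECUT2 in prostate cancer, and the question here is whether ONECUT2 peaks lay at the genes of these factors.

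The start sequences of 4 genes are shown because both replicates had a summit within 1 kb of the annotated start (SMAD2 and SMAD4) or an IDR region crossed it (SMAD2, SMAD6 and HIF1A). Each line gives the 250 bases before the outermost RefSeq start, 5′ to 3′ on the gene's own strand. Capitals mark ACGTG, the core of the hypoxia response element, searched with its reverse complement CACGT.
SMAD2 (GRCh38 chr18:47930873-47931122, minus strand): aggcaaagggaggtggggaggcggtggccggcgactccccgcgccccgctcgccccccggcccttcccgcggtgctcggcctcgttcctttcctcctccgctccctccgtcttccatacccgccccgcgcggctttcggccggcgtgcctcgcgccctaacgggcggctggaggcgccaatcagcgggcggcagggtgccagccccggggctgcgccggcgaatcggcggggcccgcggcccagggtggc
SMAD4 (GRCh38 chr18:51029963-51030212, plus strand): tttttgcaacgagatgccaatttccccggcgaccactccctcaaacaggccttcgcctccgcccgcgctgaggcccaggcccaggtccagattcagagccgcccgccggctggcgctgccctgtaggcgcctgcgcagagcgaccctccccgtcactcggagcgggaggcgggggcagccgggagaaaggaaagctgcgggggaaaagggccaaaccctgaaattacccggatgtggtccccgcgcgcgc
SMAD6 (GRCh38 chr15:66701986-66702235, plus strand): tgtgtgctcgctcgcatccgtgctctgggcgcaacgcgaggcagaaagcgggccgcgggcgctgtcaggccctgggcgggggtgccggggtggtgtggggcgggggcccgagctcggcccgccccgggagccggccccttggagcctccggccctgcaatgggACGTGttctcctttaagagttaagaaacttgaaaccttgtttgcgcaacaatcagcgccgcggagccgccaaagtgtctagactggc
HIF1A (GRCh38 chr14:61695263-61695512, plus strand): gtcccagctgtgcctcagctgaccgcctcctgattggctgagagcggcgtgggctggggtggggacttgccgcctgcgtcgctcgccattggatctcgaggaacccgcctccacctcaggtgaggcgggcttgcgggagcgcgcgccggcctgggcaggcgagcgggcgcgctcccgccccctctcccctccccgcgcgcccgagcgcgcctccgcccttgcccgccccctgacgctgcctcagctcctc

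These sequences are of build GRCh38 and the peaks of hg19, so no base of them was placed under a summit. The outermost RefSeq start need not be the start of the hg19 interval, from which the distances of peaks were counted. The RefSeq table held 16 start windows of 300 bases for the 8 genes, from 1 for SMAD4, SMAD6, EPAS1 and ARNT to 5 for SMAD3. Of the ONECUT-like cores, ATTGAT (with its reverse complement ATCAAT) occurred in 1 of the 16 windows and ATCGAT, which is its own reverse complement, in 0. Among all 35116 RefSeq start windows of that length, 6.26% held ATTGAT and 0.763% held ATCGAT. The 1 match lay 212 bases before an inner start of SMAD7, not the outermost one. It is shown with 10 bases on each side and the core in capitals.
SMAD7 inner start (GRCh38 chr18:48943004-48943029, minus strand): gcagcccaacATCAATcttgagaatg

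The letters ACGTG occurred in 5 of the 16 windows, at SMAD3, SMAD6 and SMAD7, against 21.4% of all windows. In SMAD6 the match lay 87 bases before the start. The SMAD box GTCT (reverse complement AGAC) occurred in 12 of the 16, against 84.0% of all. The outermost windows of SMAD2, SMAD3 and EPAS1 had a GC content of 78.7%, 80.3% and 80.0%, and that of SMAD7 had 48.3%. A match of letters describes the window and does not show a bound site.

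Peaks were found at the starts of SMAD2 and SMAD4 in both ChIP libraries and near those of SMAD6 and SMAD7 in replicate 1 only. The ARNT window held 1 replicate 1 peak at its far upstream edge, and the windows of SMAD3, HIF1A and EPAS1 held no peak of either replicate. The IDR list had 1 region at SMAD2, 1 at SMAD6, 2 at SMAD7 and 1 at HIF1A. SMAD3 and EPAS1 had no peak in any of the 3 lists. Among the 8 windows, 5 held a peak in replicate 1, 2 in replicate 2, 2 in both replicates and 4 in the IDR list. As background, the genome was cut into 17465 tiles of 173 kb, the median window length. A peak was present in 34.6% of tiles in replicate 1, in 30.8% in replicate 2, in 26.6% in both replicates and in 17.9% in the IDR list. The windows were drawn around genes and each holds a gene start, while a tile need not. The count of 2 windows of 8 in both replicates is close to the tile share and is read as no result about these genes.

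**Figure D1:**
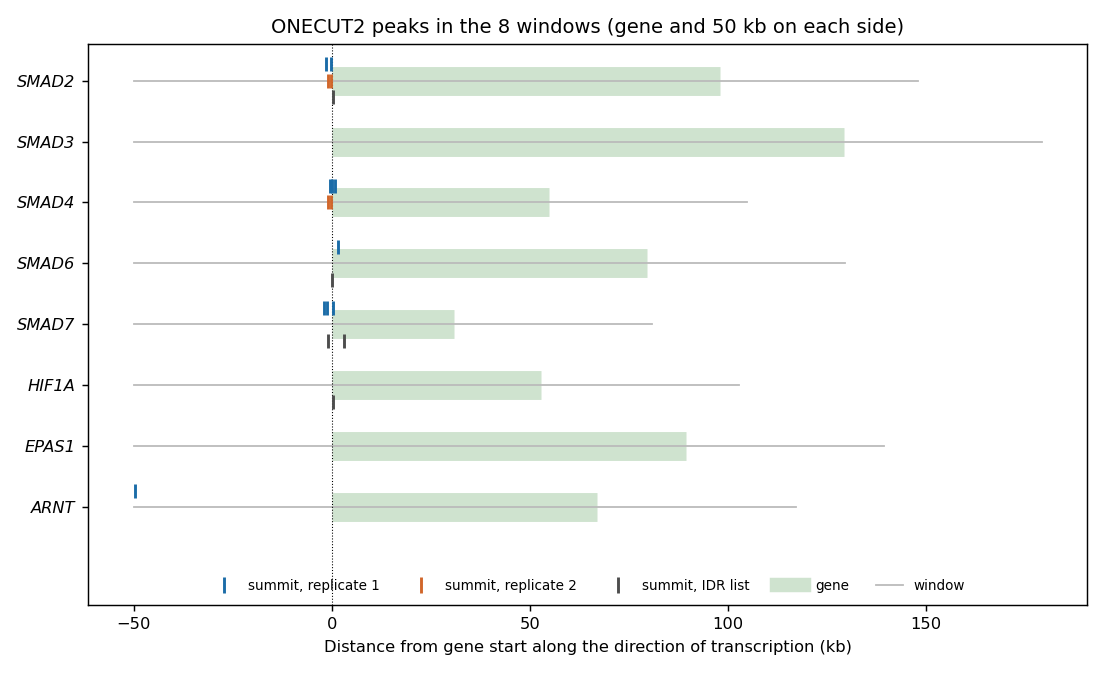
Positions of peak summits in the 8 windows, drawn along the direction of transcription with the gene start at 0 kb (horizontal axis, kb; green bars are genes, grey lines the windows, ticks the summits of each list). Nearly all ticks stand at the starts of SMAD2, SMAD4, SMAD6, SMAD7 and HIF1A; the SMAD3 and EPAS1 lines are bare, and the only ARNT tick stands at the far upstream edge.

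By length the windows covered 1.4 Mb. Replicate 1 had 7.13 peaks per Mb in them (exact Poisson interval at 95%, 3.42 to 13.1), against 4.69 per Mb over the autosomes and X. Replicate 2 had 2.85 per Mb (interval 0.777 to 7.31), against 3.90. The IDR list had 3.57 regions per Mb (interval 1.16 to 8.32), against 1.42. Of these intervals, all 3 include the density of the whole list. They hold counting error alone, and peaks at the same start are not separate events.

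Within the windows, the peaks sat at gene starts. Summits within 1 kb of the annotated start numbered 5 of 10 in replicate 1, 4 of 4 in replicate 2 and 3 of 5 in the IDR list, although these zones make up 1.14% of the window length. Within 2 kb, a distance chosen after the values were seen, the numbers were 9 of 10, 4 of 4 and 4 of 5. The share of all ONECUT2 peaks that lie at gene starts was not analysed here, for want of an hg19 annotation, so this placement is not shown to be particular to these genes. For the same reason exons, introns and untranslated regions under the peaks are not named.

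Among the receptor-regulated SMADs, SMAD2 had the highest fold enrichment of the 8 genes in each replicate. The SMAD2 interval runs on chromosome 18 from 45359466 to 45457515 in hg19 and is transcribed from its right end. The main peak of replicate 1 ran from 45457346 to 45458521, across the start, with its summit 323 bp upstream. There 48 ChIP fragments stood over a local input background of 11.2, a fold enrichment of 4.03 with −log10 q of 12.6. In replicate 2 the peak from 45457738 to 45458028 had its summit 325 bp upstream, 2 bp from that of replicate 1. It had 44 fragments over 12.4, a fold of 3.35 with −log10 q of 8.58. The summits of the libraries thus marked the same place, at a fold of 3.69 ± 0.48 (SD, n = 2). The log2 ratio of fragments, replicate 2 over replicate 1, was -0.13, within the counting SD of 0.30.

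The SMAD2 start carried further peaks in each library. Replicate 2 had a second peak from 45458320 to 45458560, with 19 fragments over 4.87 and a fold of 3.41. It overlapped the far edge of the wide replicate 1 peak, although its summit was 616 bp from that of replicate 1. A second replicate 1 peak, from 45458747 to 45458950, had 16 fragments over 4.37, a fold of 3.16, and no partner in replicate 2. The backgrounds of 4.37 and 4.87 were the smallest of their lists, shared by 2354 and 3300 peaks. They need not be input counted at these places. The IDR region from 45456750 to 45458305 crossed the start and overlapped peaks of both replicates. Its summit lay 220 bp inside the gene, while the summits of the replicate peaks it overlapped lay upstream of the start. The deposited signal of this region was 244, rank 1116 of 4297. It was the 1 IDR region of the 5 with a peak in both lists, against 63.3% of all IDR regions. With only 5 regions and no interval computed, this share is read as no result about these genes.

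SMAD3, the other receptor-regulated SMAD, had no peak. Its interval on chromosome 15 from 67358195 to 67487533, 129 kb long, and the flanks on both sides made the longest of the 8 windows, at 229 kb. The nearest replicate 1 peak lay 59.1 kb beyond the gene's 3′ end, with a fold of 3.24. The nearest replicate 2 peak lay 262 kb and the nearest IDR region 326 kb away on the same side. In RefSeq the next protein-coding gene on that side is AAGAB, followed by IQCH.

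SMAD4, the common partner of the receptor-regulated SMADs, had peaks in both libraries, with lower folds than the main SMAD2 peaks. Its interval on chromosome 18 runs from 48556583 to 48611411. Replicate 1 had 3 peaks there, with summits 344 bp upstream, 63 bp downstream and 714 bp downstream of the start. The first ran from 48555819 to 48556307 and had 34 fragments over 11, a fold of 2.91. The second, from 48556573 to 48556909, crossed the start and had 36 fragments over 16.4, a fold of 2.12. The third, from 48557295 to 48557496, had 24 fragments over 10.5, a fold of 2.17. Fold was lower over the start than upstream of it although fragments were alike, since the background was higher there.

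In replicate 2 the SMAD4 peaks lay upstream of the start only. The peak from 48556114 to 48556306 had its summit 277 bp upstream, 67 bp from the first summit of replicate 1. It had 29 fragments over 13.6, a fold of 2.06 with −log10 q of 1.44, close to the smallest of the list, 1.32. With its replicate 1 partner the fold was 2.48 ± 0.60 (SD, n = 2). The other peak, from 48555580 to 48555877, had 19 fragments over 5.96, a fold of 2.88, and overlapped the same replicate 1 peak by 59 bp. No IDR region lay in the SMAD4 window, and the nearest was 59.1 kb upstream of the gene. SMAD4 thus had peaks in both libraries and no region of the IDR list in its window.

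**Figure D2:**
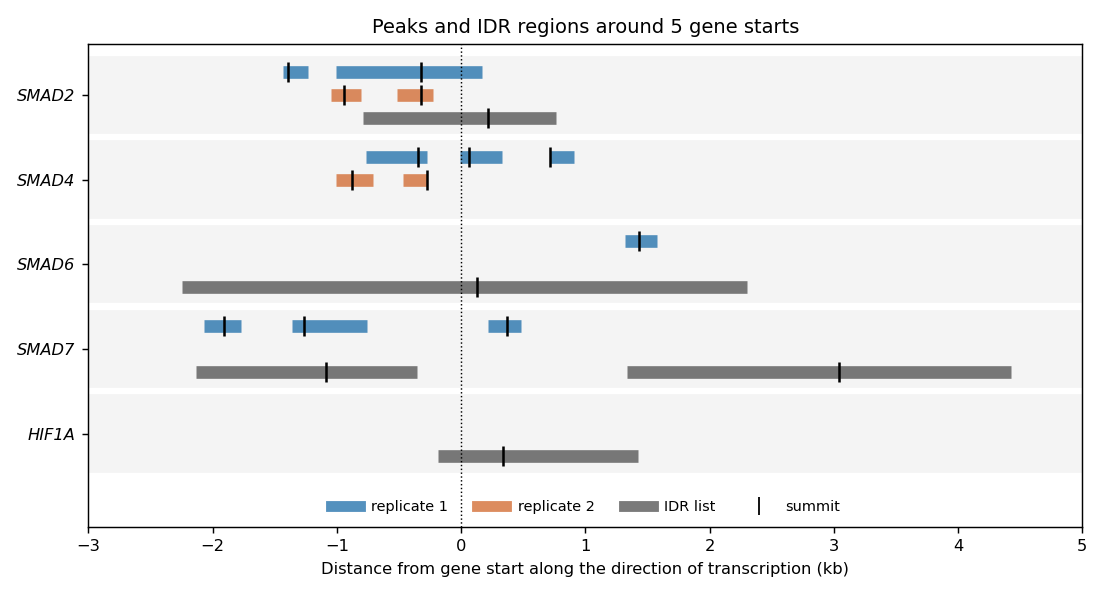
Extent of peaks and IDR regions around the starts of SMAD2, SMAD4, SMAD6, SMAD7 and HIF1A (horizontal axis, distance from the start in kb along transcription; coloured bars run from peak edge to peak edge, black ticks are summits). SMAD2 has bars of all 3 lists upstream of or across its start, SMAD4 bars of both replicates and none of the IDR list, and HIF1A a single IDR bar.

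Of the inhibitory SMADs, SMAD6 had 1 peak in replicate 1 and a wide IDR region. The gene lies on chromosome 15 from 66994674 to 67074337. The replicate 1 peak from 66995996 to 66996248 had its summit 1435 bp inside the gene, with 37 fragments over 15.1 and a fold of 2.36. The IDR region from 66992425 to 66996972 was 4548 bp wide and crossed the start, with its summit 127 bp inside the gene. Only 1.23% of IDR regions were wider. Its signal of 242 ranked 1145, close to that of the SMAD2 region. The nearest replicate 2 peak lay 197 kb upstream of the gene, with a fold of 7.0.

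SMAD7, the other inhibitor and a well-known TGF-beta target gene, had 3 peaks in replicate 1 and none in replicate 2. Its interval on chromosome 18 runs from 46446223 to 46477081 and is transcribed from the right end. The peak from 46477839 to 46478442 had its summit 1262 bp upstream of the start, with 42 fragments over 13.1, a fold of 3.04 and −log10 q of 6.95. The peak from 46476598 to 46476863 had its summit 367 bp inside the gene, with 33 fragments over 10.1 and a fold of 3.06. The peak from 46478850 to 46479153, with its summit 1910 bp upstream, had 33 fragments over 13.1 and a fold of 2.40. These peaks flanked the annotated start without covering it.

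The IDR list had 2 regions at SMAD7. The upstream one, from 46477439 to 46479216, had a signal of 205, a score of 886, and held the 2 upstream peaks of replicate 1. The other, from 46472657 to 46475743, lay inside the gene, between 1338 and 4424 bp from the start, with a signal of 192 and a score of 1000. It overlapped no peak of either replicate. RefSeq also lists inner starts of SMAD7, which were not placed in hg19, so the region may lie at one of them. The nearest replicate 2 peak lay 303 kb beyond the 3′ end of the gene.

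HIF1A had an IDR region across its start and no replicate peak in its window. The gene lies on chromosome 14 from 62162119 to 62214977. The region ran from 62161934 to 62163544, from 185 bp upstream to 1425 bp downstream of the start, with its summit 337 bp downstream. Its signal was 166, rank 3064 of 4297, the lowest of the 5, and its score was 793. The nearest peak of replicate 1 lay 168 kb upstream of the gene with a fold of 3.50, and that of replicate 2 lay 63.7 kb upstream with a fold of 3.41. Like the inner SMAD7 region, this one was without a peak in either replicate, as were 18.3% of all IDR regions. The sources do not say which library gave these regions their signal.

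EPAS1, which encodes the HIF-2 subunit, had the emptiest surroundings. Its interval on chromosome 2 runs from 46524541 to 46613842. The nearest replicate 1 peak lay 529 kb downstream, the nearest replicate 2 peak 646 kb upstream and the nearest IDR region 2700 kb upstream. On chromosome 2 as a whole, 29.4% of the 173 kb tiles held a replicate 1 peak, 24.9% a replicate 2 peak and 12.1% an IDR region.

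ARNT, the shared partner, had no peak near its start. Its interval on chromosome 1 runs from 150782181 to 150849244 and is transcribed from the right end. The 1 peak of its window was in replicate 1, from 150898566 to 150898918, with its summit 49583 bp upstream of the start, at the edge of the window. It had 39 fragments over 16.4 and a fold of 2.30, and overlapped neither a replicate 2 peak nor an IDR region. In RefSeq the protein-coding genes that come next upstream of ARNT are CTXND2 and then SETDB1, so this peak need not belong to ARNT. On the long arm of chromosome 1, where ARNT lies, 54.4% of tiles held a replicate 1 peak, 55.5% a replicate 2 peak and 37.1% an IDR region.

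The SMAD genes of chromosome 18 held most of the members. Their 3 windows, 0.484 Mb in all, had 8 of the 233 replicate 1 peaks of this chromosome, 4 of its 178 replicate 2 peaks and 3 of its 63 IDR regions. The shares were 3.43%, 2.25% and 4.76%. All 3 windows held a replicate 1 peak, against 26.5% of chromosome 18 tiles. For replicate 2 and the IDR list it was 2 of 3, against 22.7% and 12.0%. In replicate 1 the 8 peaks lay at 3 starts, so they are not 8 separate places. Chromosome 18 was set apart here because most members lay on it. Each window holds a gene start, while a tile need not, so the comparison is not read as a result about these genes.

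Peaks in the windows were of low to middling height. In replicate 1 fold enrichment ran from 2.12 to 4.03 with a median of 2.66, against 3.28 over the whole list. In replicate 2 it ran from 2.06 to 3.41 with a median of 3.11, against 3.41. The medians rest on 10 and 4 peaks at a few starts, and their difference from the lists was not tested. No window peak reached a fold of 6, which 7.46% of all replicate 1 peaks and 7.08% of all replicate 2 peaks did. With so few window peaks this count is close to those shares and is read as no result about these genes. The SMAD2 peak of replicate 1 was the only one in the upper part of its list, with 23.7% of peaks above it, while the 2 peaks of lowest fold there, both at SMAD4, had 96.2% and 95.2% above them. Of the replicate 2 peaks, the second SMAD2 peak stood at the median fold of its list, and the other 3 lay below it. That second SMAD2 peak had 19 fragments over 4.87, the smallest background of the list, and 89.6% of the list had more fragments.

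**Figure D3:**
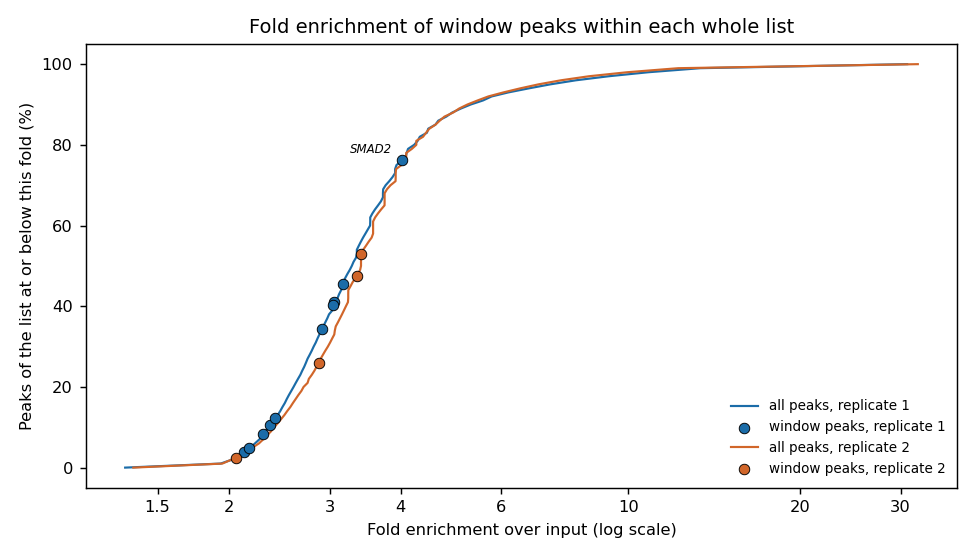
Fold enrichment over input (horizontal axis, log scale) against the percentage of the list at or below it, for all peaks (lines) and for the window peaks (points) of each replicate. The window peaks lie between 2.06 and 4.03, on the lower and middle part of both curves, and the SMAD2 peak of replicate 1 is the highest point.

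Fragments at the summits were closer to the list in replicate 1 than fold was. Window summits had a median of 35 ChIP fragments in replicate 1, against 34 over the whole list, and 24 in replicate 2, against 30. The median background under the window peaks was 12.2 fragments in replicate 1 and 9.19 in replicate 2, against 10.2 and 7.39 over the lists. Fold is taken over this background, so a place with high input needs more fragments for the same fold. The part of input in the low folds was not tested.

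Replicate support was examined next. In replicate 1, 2 of the 10 window peaks (20%, exact Clopper-Pearson interval 2.52% to 55.6%) overlapped a replicate 2 peak, against 51.1% of the list. In replicate 2, 4 of 4 (100%, interval 39.8% to 100%) overlapped a replicate 1 peak, against 64.5%. Those 4 peaks overlapped only the 2 replicate 1 peaks at SMAD2 and SMAD4, so they mark 2 places. The IDR list overlapped 4 of 10 window peaks of replicate 1 (40%, interval 12.2% to 73.8%), against 32.8% of the list. For replicate 2 it was 1 of 4 (25%, interval 0.631% to 80.6%), against 31.4%. Each background share lies within its interval.

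For the peaks seen in replicate 1 only, the number of fragments that replicate 2 would have needed was estimated from the deposited values. The replicate 2 background was taken as 1.11 times that of replicate 1 and the lowest −log10 p of the replicate 2 list, 3.95, as the limit. At SMAD7 the 3 summits of 42, 33 and 33 fragments in replicate 1 would have needed 31, 26 and 31 in replicate 2, listed from the 1262 bp upstream summit to the inner and the 1910 bp upstream one. At SMAD6 it was 34 against 37 found in replicate 1, and at ARNT 36 against 39. At the SMAD4 start it was 36 against 36, at the third SMAD4 summit 26 against 24, and at the second SMAD2 summit 15 against 16. In 6 of these 8 peaks the number needed was within counting error, the square root of the number found. Numbers found were not scaled by 1.11 as the background was, and scaling them could leave fewer than 6 peaks within this margin. Absence of these 6 from replicate 2 does not show that they were weaker there. The exceptions on this unscaled comparison were both at SMAD7. They were the summit 1262 bp upstream (42 found, 31 needed) and the summit 367 bp inside the gene (33 found, 26 needed). This margin leaves out the counting error of replicate 2, so these SMAD7 summits are not shown to be weaker there either. At the smallest background of each list, 4.37 and 4.87 fragments, a summit needed at least 14 and 15 fragments. A higher background raised the number, to 27 fragments at a background of 12 in each replicate. The windows of SMAD3, EPAS1 and HIF1A without replicate peaks may therefore hold sites below the number for their background, which were not detectable at this depth.

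**Figure D4:**
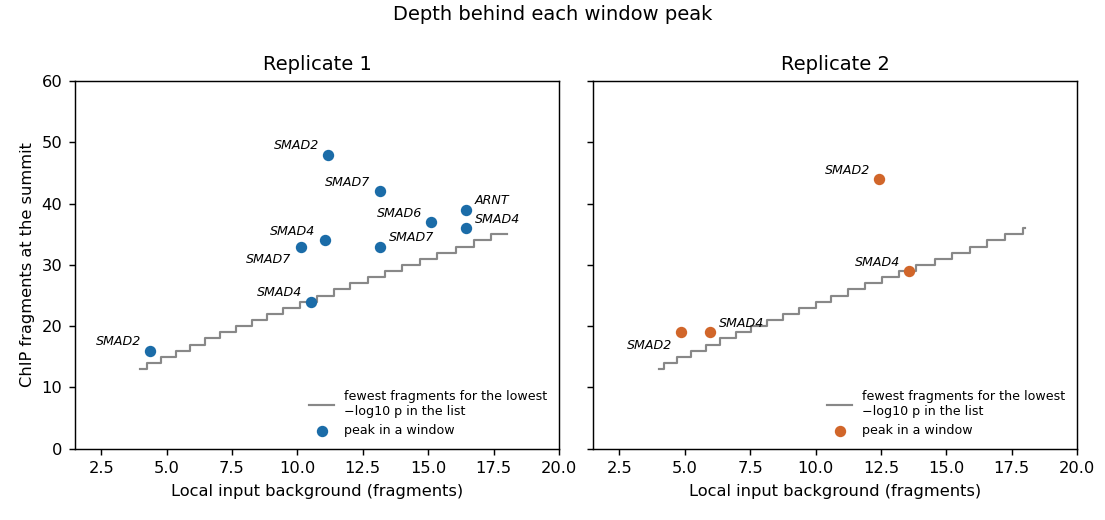
ChIP fragments at each window summit (vertical axis) against the local input background (horizontal axis, fragments), for replicate 1 and replicate 2, with the fewest fragments that give the lowest −log10 p of the list as a grey step line. The SMAD2 peaks of 48 and 44 fragments stand well above the line in both panels, and the SMAD4 peaks of 24 and 29 fragments lie on it. The smallest backgrounds, 4.37 and 4.87, are shared by 2354 and 3300 peaks of the lists and need not be local counts.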

How the data were processed

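ONECUT2 ChIP-seq was described from 3 peak lists in build hg19. BWA 0.7.13-r1126, Picard and MACS2 2.1.1 are listed in the submitters' processing notes without their roles. Per the file headers, the authors called the peaks of the replicate lists with MACS2, with settings that are not given in the sources used here. Fold enrichment is the authors' ratio of ChIP over input background at the summit, and −log10 p and −log10 q are as deposited. The IDR list holds a deposited score and signal value on scales that its header does not name. The sources do not give its caller or how libraries were combined.

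Peaks overlapping a gene interval and 50 kb on each side by at least 1 bp were taken, and overlap between lists needed 1 bp. All 8 genes and all their peaks were named by rule. The members and lists were chosen with earlier results of these data known. Positions count from 1. ChIP fragments and input background were recovered from fold, taken as (fragments + 1)/(background + 1), and the Poisson −log10 p. A whole number was found within 0.001 for 99.99% of peaks in each list, with backgrounds of at least 1 tried. This step, the overlap step and the window step were tested on made-up peaks. Total reads per library are not stated, so fragments at the summit stand for depth. No test between conditions was possible, and none was made. Exact Poisson and Clopper-Pearson intervals at 95% cover counting error only. Start sequences and gene order came from RefSeq on GRCh38.p14, with all 8 genes matched by symbol; no coordinates were converted. Scripts used Python 3.11.15, pandas 2.3.3 and SciPy 1.17.1.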

Additional observations from a re-analysis of the deposited data

How the results depend on the processing

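Of 35 alternative values, 18 stayed within 1.5 times of a count or within the interval or replicate spread of a share or ratio, and 17 did not. Peaks in the windows (10 in replicate 1, 4 in replicate 2) fell to 5 and 0 without flanks, to 4 and 1 with −log10 q of at least 5, and to 0 and 0 with a fold of 6 or more. With flanks of 100 kb, replicate 2 had 8 peaks and the IDR list 8 regions in place of 5. Asking for a peak in both replicates left 1 IDR region, at SMAD2. Genes with a peak in both replicates (2) became 0 without flanks, 1 with −log10 q of at least 5 and 0 with a fold of 6 or more, and ranged from 2 to 5 when 1 replicate list was used alone. Without replicate 2 the 5 genes were SMAD2, SMAD4, SMAD6, SMAD7 and ARNT. With flanks of 10 kb the ARNT peak dropped out, and the other genes kept their counts. The shares of overlapping window peaks fell to 0% in both directions with a reciprocal overlap of 50%. Relative to all peaks, the median fold of window peaks was 0.809 in replicate 1 and 0.914 in replicate 2; for fragments it was 1.03 and 0.8. The moved counts follow from other peaks being counted and the moved shares from the stricter overlap; the cause of the difference between fold and fragments was not tested. No paired analysis was possible because there is only 1 ChIP group, and input enters the lists solely as the background of a peak. Fragments per summit, from 16 to 48, limit every fold given.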
